A study of Homo sapiens with 24 samples.

Results

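Genomic sites of S100A8-Flag and S100A9-Flag that lie between genes but close to them were examined. They were selected on their peaks and on their position. A peak had to pass a −log10 q value of 7 and to recur in at least 2 replicates of a condition, and the sites of the 4 conditions were merged into union sites. Of these, a site was kept when its summit lay in no body of a protein-coding or lncRNA gene, more than 1500 bp from every transcription start site (TSS) of such genes, and within 50 kb of a protein-coding TSS. By this rule, 4422 of 30322 union sites (14.6%) were intergenic sites with a gene nearby. Of the remaining sites, 13335 (44%) lay within 1500 bp of a TSS, 9899 (32.6%) in gene bodies, and 2666 (8.79%) in intergenic sequence without a protein-coding TSS within 50 kb.

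The sites come from MCF-10A cells, a nontumorigenic human mammary epithelial line, that carry ER-Src, a Src oncoprotein joined to the ligand-binding domain of the estrogen receptor. Treatment with 4-hydroxytamoxifen (TAM, 1 μM for 24 hours) switches this fusion on and transforms the cells, whereas cells given the vehicle ethanol (EtOH) stay nontransformed. All 4 groups carry ER-Src together with a retroviral transgene, either S100A8 or S100A9 with a Flag tag at the C terminus, next to their own S100A8 and S100A9 genes, and chromatin was fixed with protein-protein cross-linkers before formaldehyde. S100A8-Flag was measured in 2 EtOH and 3 TAM libraries, and S100A9-Flag in 3 and 3. They are replicates by their labels, and p values here measure only the spread between these libraries. Flag ChIP of cells with an untagged protein was not analysed here.

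S100A8 and S100A9 are small calcium-binding proteins that form a heterodimer and have no DNA binding domain known to recognize a sequence, so that contact with chromatin is thought to pass through other proteins. Intergenic sequence near genes holds enhancers, elements at which sequence-specific factors gather and act on promoters at a distance. AP-1, a dimer of Fos and Jun proteins, is a main factor of enhancers in epithelial cells, and CTCF is the factor that anchors chromatin loops and marks the borders of domains.

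To show what such sites look like, the sequence around the summit, 50 bp to either side, is given for sites that the results below return to, read from the hg19 (GRCh37) genome. Capitals mark matches to a motif. These are TGACTCA or TGAGTCA for AP-1, CACGTG for the E-box, CGGAAG for ETS factors, TTCCNGGAA, TTCTNGGAA, TTCTNAGAA, or TTCCNAGAA for STAT3, and ACATTCCA for TEAD, each on either strand, and the CTCF match is to the core of its consensus.
Site upstream of RD3, chr1:211688751-211688851, + strand: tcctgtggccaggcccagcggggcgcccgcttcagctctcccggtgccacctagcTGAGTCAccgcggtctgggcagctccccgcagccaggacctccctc
Site upstream of TNS4, chr17:38666596-38666696, + strand: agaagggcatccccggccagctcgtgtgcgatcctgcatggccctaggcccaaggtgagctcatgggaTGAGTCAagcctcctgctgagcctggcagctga
Site upstream of LPIN3, chr20:39958342-39958442, + strand: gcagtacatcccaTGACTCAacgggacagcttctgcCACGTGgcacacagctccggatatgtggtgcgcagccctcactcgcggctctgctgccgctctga
Site downstream of FTO, chr16:54227676-54227776, + strand: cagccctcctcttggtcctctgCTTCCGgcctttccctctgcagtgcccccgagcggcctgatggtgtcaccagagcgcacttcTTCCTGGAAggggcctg
Site upstream of SPRY2, chr13:80917091-80917191, + strand: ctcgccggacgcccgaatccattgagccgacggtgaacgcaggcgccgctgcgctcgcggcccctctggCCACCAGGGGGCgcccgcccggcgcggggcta
Site downstream of TBCB, chr19:36618806-36618906, + strand: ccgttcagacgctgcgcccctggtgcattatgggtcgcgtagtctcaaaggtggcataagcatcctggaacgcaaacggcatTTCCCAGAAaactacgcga
Site upstream of FLVCR2, chr14:76027396-76027496, + strand: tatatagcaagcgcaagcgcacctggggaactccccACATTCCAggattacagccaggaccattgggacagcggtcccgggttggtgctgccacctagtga
Site upstream of KRT17, chr17:39805127-39805227, + strand: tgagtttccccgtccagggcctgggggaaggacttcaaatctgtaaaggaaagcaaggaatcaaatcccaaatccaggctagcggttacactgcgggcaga
Site downstream of SIK1, chr21:44832285-44832385, + strand: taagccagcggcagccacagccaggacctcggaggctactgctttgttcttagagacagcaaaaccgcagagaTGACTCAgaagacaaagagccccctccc
The sites upstream of RD3 and TNS4 hold AP-1 within 25 bp of the summit and were called in every library. The site upstream of LPIN3 holds both AP-1 and an E-box, and that downstream of FTO holds STAT3 and ETS matches. The site upstream of KRT17, the widest of all, held none of the 12 motifs searched within 100 bp of its summit.

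The distance from the summit to the nearest protein-coding TSS had a median of 15356 bp, with quartiles at 7247 and 27254 bp. At the limits of the rule, the nearest site to any TSS lay at 1501 bp and the farthest from a protein-coding TSS at 49981 bp, next to excluded sites at 1500 and 50014 bp. The lowest peak that carried a site had a −log10 q of 7.04, and the highest deposited value under the limit was 7.0. Most sites, 2781 of 4422 (62.9%), lay upstream of the nearest TSS. The rule left out gene bodies, which extend downstream of a TSS, and so by itself favored upstream sites. The nearest TSS belonged to 3098 genes, and 1950 sites (44.1%) had only 1 protein-coding gene within 50 kb. The sites were narrow, with a median width of 290 bp after merging. In each library, intergenic peaks were narrower than those near a TSS, with a difference in median width of −71.1 ± 21.2 bp (SD, n = 11 libraries).

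All but 2 of the intergenic sites were called by at least 1 TAM library, and 3322 of 4422 (75.1%) were called by no EtOH library, next to 68.9% of all union sites. A larger share of libraries called the site in TAM than in EtOH at 4376 sites (99.0%, next to 98.2% of all union sites), and the reverse held at 28 sites (0.633%, next to 0.824%). All 6 TAM libraries called 456 sites (10.3%, next to 14.3%), and all 11 libraries called 7 sites (0.158%, next to 0.346%). Since the sites were selected on these calls and the TAM lists are longer, these counts describe the sites and support nothing about the treatment.

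Per library, the number of intergenic peaks was 490 and 541 for S100A8-Flag in EtOH, and 355, 180, and 550 for S100A9-Flag in EtOH. In TAM it was 4114, 3366, and 2932 for S100A8-Flag, and 3649, 3391, and 5951 for S100A9-Flag. Every TAM library exceeded every EtOH library. The means were 423 ± 157 (SD, n = 5) and 3901 ± 1077 (SD, n = 6), a log2 difference of 3.21 averaged over both proteins, at exact permutation p = 0.01, two-sided, the smallest p that 200 arrangements of the libraries within each protein allow. Within a protein, exact permutation cannot go below p = 0.2 for S100A8-Flag and 0.1 for S100A9-Flag. The number of reads per library is unknown, so that depth and binding strength cannot be told apart in the number of peaks. With the same number of top peaks taken from every library, the log2 difference was 0.29 (exact permutation p = 0.01). Adjusted over the 8 tests by the Benjamini-Hochberg method, an exact permutation p of 0.01 became 0.0133.

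The intergenic share of a library's peaks also rose. It was 11.3% and 11.7% for S100A8-Flag in EtOH, and 9.88%, 9.71%, and 12% for S100A9-Flag in EtOH. It was 14%, 14%, and 13.6% for S100A8-Flag in TAM, and 14.3%, 14.1%, and 14.6% for S100A9-Flag in TAM. The ranges did not overlap, and the share was 3.08 percentage points higher in TAM (exact permutation p = 0.01). It remained higher, by 2.28 points, when every library gave the same number of top peaks. In TAM, the share of S100A9-Flag exceeded that of S100A8-Flag by 0.49 points, at exact permutation p = 0.1, the smallest that 3 against 3 libraries allow. The shares of peaks in the other classes were not compared, so the rise is not shown to be particular to intergenic sites near genes. At the union sites, which were selected on calls, the log2 ratio of their calls to those of gene-body sites changed by −0.39 from EtOH to TAM. The ratio to sites beyond 50 kb changed by −0.65.

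Calls at the union sites were set beside those of the other classes in each library. In the EtOH libraries, 3.17 to 9.29% of the intergenic sites were called (mean 7.17 ± 2.59%, n = 5), next to a mean of 15.4% of sites near a TSS, 5.36% of gene-body sites, and 4.53% of sites beyond 50 kb. Intergenic sites near genes thus stood below promoters and above both other distal classes in 5 of 5 EtOH libraries. In the TAM libraries, 47.6 to 83.5% were called (mean 60.4 ± 12.7%, n = 6), next to 68.2%, 58.7%, and 58.9%. They stood below promoters in 6 of 6 TAM libraries, above gene-body sites in 6, and above sites beyond 50 kb in 5. On the log2 scale, the ratio to gene-body sites was 0.45 ± 0.15 in EtOH and 0.04 ± 0.04 in TAM, that to sites beyond 50 kb was 0.71 ± 0.19 and 0.04 ± 0.06, and that to all other union sites was −0.58 ± 0.16 and −0.08 ± 0.06. All classes were selected on these calls, and most sites entered through TAM peaks: 75.1% of the intergenic sites near genes, 55.1% of those near a TSS, 80.7% of those in gene bodies, and 83.6% of those beyond 50 kb had no EtOH call. The ratios therefore describe the sites and were not tested between treatments.

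**Figure D1:**
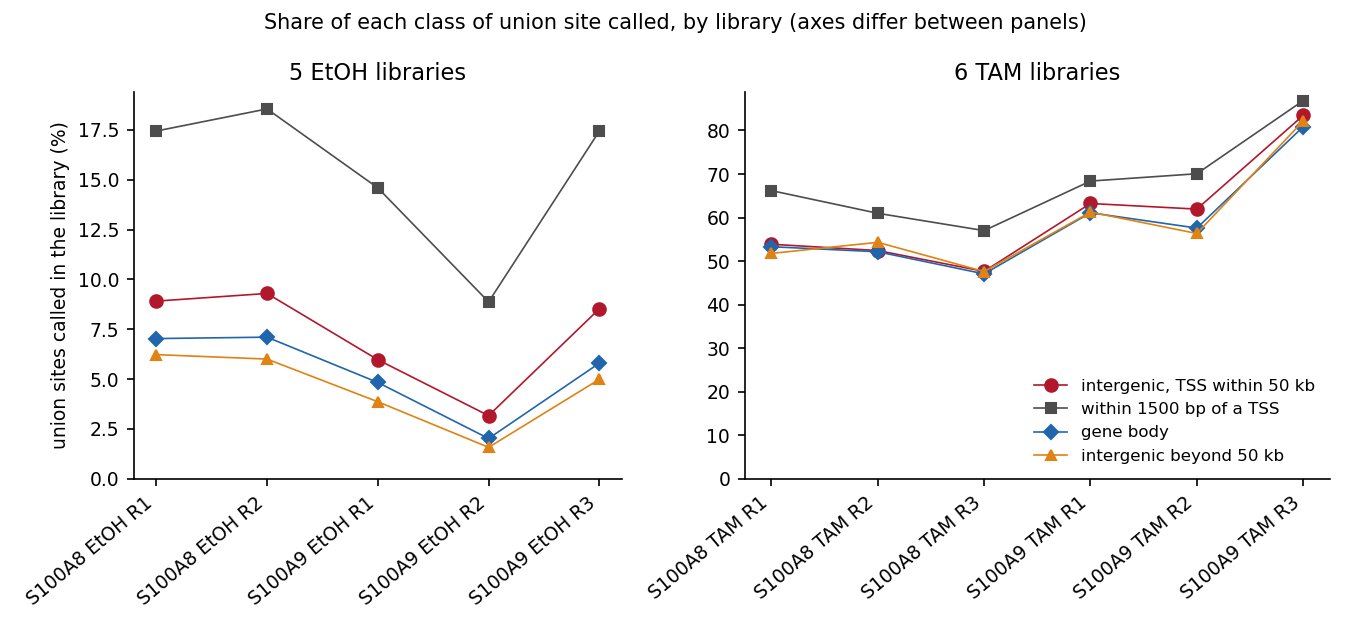
Percent of the union sites of 4 classes called in each library (y axis, with a different range in each panel), for the 5 EtOH libraries on the left and the 6 TAM libraries on the right. Intergenic sites with a TSS within 50 kb (circles) lie between the promoter and the other distal classes in EtOH, at 3.17 to 9.29%, and run close to the distal classes in TAM, at 47.6 to 83.5%.

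Peaks at intergenic sites were of lower rank than those at promoters, as were, on average, the peaks of the other distal classes. Within each library, peaks were ranked by fold enrichment over input, and the median percentile of intergenic peaks differed from that of peaks near a TSS by −5.46 points (SD 2.43, n = 11 libraries, exact sign-flip permutation p = 0.00195, adjusted p = 0.00521). It was lower in 10 of 11 libraries, the exception being S100A9-Flag in EtOH replicate 2, the library with the fewest peaks, at 0.84 points higher. The difference was −2.98 points at a −log10 q of 10 and −3.28 points with equal numbers of top peaks. The lower rank was shared by all distal classes. The median percentile, averaged over the 11 libraries, was 53.2 near a TSS and 47.7 for intergenic peaks near genes. It was 46.3 for gene-body peaks and 46.7 for peaks beyond 50 kb. Intergenic peaks near genes ranked above gene-body peaks in 9 of 11 libraries and above peaks beyond 50 kb in 6. The median fold enrichment of intergenic peaks in a library was between 7.5 and 8.51.

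Motifs were searched on both strands within 100 bp of each site's summit, and windows centered 1000 bp to either side served as controls. AP-1 was the most frequent of the 12 motifs at the intergenic sites, found at 1338 of 4422 (30.3%) and in 3.56% of the control windows. CTCF was found at 814 sites (18.4%) and in 0.633% of the control windows, a ratio of 29.1, the largest among the 12 motifs, next to 8.5 for AP-1. Matches for C/EBP (TTACNNAA or TTGCNNAA), the factors of differentiation and inflammation, were second in frequency, at 20.2% of sites and 16% of controls. ETS was at 7.51% (control 2.97%), RUNX (TGTGGTT) at 5.07% (3.09%), the E-box at 4.59% (2.57%), KLF/SP1 (CCCCGCCC) at 3.89% (1.04%), and STAT3 at 3.64% (2.24%). TEAD was at 1.45% (0.769%), CREB (TGACGTCA) at 0.52% (0.181%), and GRHL (AACCGGTT) at 3 sites, and the p53/p63 consensus stood at 6.72% (5.19%). No motif of the 12 was found at 1218 sites (27.5%). These are matches to letters, not sites of a factor.

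The shares were set beside those of the other classes. AP-1 was found at 11.6% of union sites near a TSS, 38.6% of those in gene bodies, and 44.1% of those beyond 50 kb, and at 26.0% of all union sites. CTCF was found at 8.66%, 11.9%, and 9.45% of these classes and at 11.2% of all, so that its share was highest at intergenic sites near genes. ETS and KLF/SP1, the motifs of promoters, were at 22.8% and 20.6% of sites near a TSS. Within 50 bp of the summit, 1007 intergenic sites held AP-1, 710 held CTCF, and 16 (0.362%) held both. The joint count is not given for the other classes or for all union sites and is a description. The motifs lay near the summit. Where AP-1 was found within 250 bp, its median distance from the summit was 32 bp, and that of CTCF was 18 bp, with 62.9% of the CTCF matches within 25 bp.

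**Figure D2:**
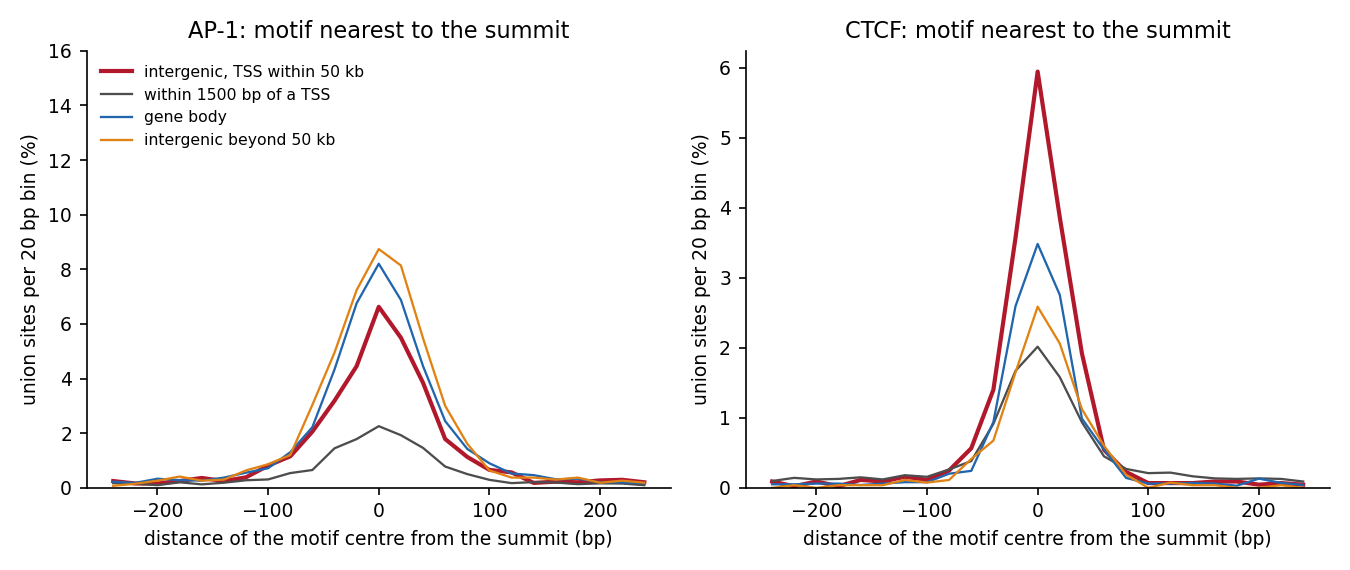
Distance in bp from the summit to the center of the nearest AP-1 motif (left) and CTCF motif (right), on the x axis, against the percent of union sites of each class in bins of 20 bp, on the y axis. Both motifs peak at the summit in every class, and the intergenic sites with a TSS within 50 kb (thick line) have the highest CTCF peak and an AP-1 peak below those of the other distal classes.

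The place of the intergenic peaks below both other distal classes held within each library at its own summits, with a window of 50 bp. The AP-1 share of intergenic peaks differed from that of peaks beyond 50 kb by −7.17 points (SD 3.01, n = 11 libraries) and from that of gene-body peaks by −4.91 points (SD 1.76), lower in 11 of 11 libraries for each, both at exact sign-flip permutation p = 0.000977, the smallest possible (adjusted p = 0.00391). The sizes depend on the peaks taken. With every deposited peak, the AP-1 differences fell to −2.36 and −1.36 points, and with equal numbers of top peaks they were −11.7 and −8.96 points. With 1 TSS per gene, the difference from gene-body peaks was −1.91 points (exact sign-flip permutation p = 0.00977). The CTCF share of intergenic peaks was higher than that of gene-body peaks by 5.08 ± 1.12 points (SD, n = 11 libraries), of peaks beyond 50 kb by 6.13 ± 1.74 points, and of peaks near a TSS by 8.14 ± 1.83 points, in 11 of 11 libraries for each, a comparison that was added after the data were seen and has no test.

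AP-1 was more frequent in TAM. The AP-1 share of intergenic peaks was 15.3% and 16.5% for S100A8-Flag in EtOH, and 10.7%, 11.1%, and 9.82% for S100A9-Flag in EtOH. It was 18.5%, 20.6%, and 21.5% for S100A8-Flag in TAM, and 20.6%, 20.7%, and 24.0% for S100A9-Flag in TAM. The EtOH and TAM ranges did not overlap, and the share rose by 7.75 points averaged over proteins (exact permutation p = 0.01). It was 8.42 points higher with equal numbers of top peaks. The AP-1 share was higher in TAM in the other classes too, with means of 16.5% in EtOH and 26.8% in TAM for gene-body peaks, 17.2% and 30.4% beyond 50 kb, and 3.33% and 7.75% near a TSS, next to 12.7% and 21.0% for intergenic peaks near genes. The CTCF share of intergenic peaks was 15.1% and 12.4% for S100A8-Flag in EtOH, and 10.7%, 15%, and 12.2% for S100A9-Flag in EtOH. In TAM it was 11.6%, 12.1%, and 10.8% for S100A8-Flag, and 14%, 17%, and 16.2% for S100A9-Flag. The treatments overlapped, and the difference of 0.45 points (exact permutation p = 0.76) turned to −2.16 points (exact permutation p = 0.07) within 100 bp of the summit.

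**Figure D3:**
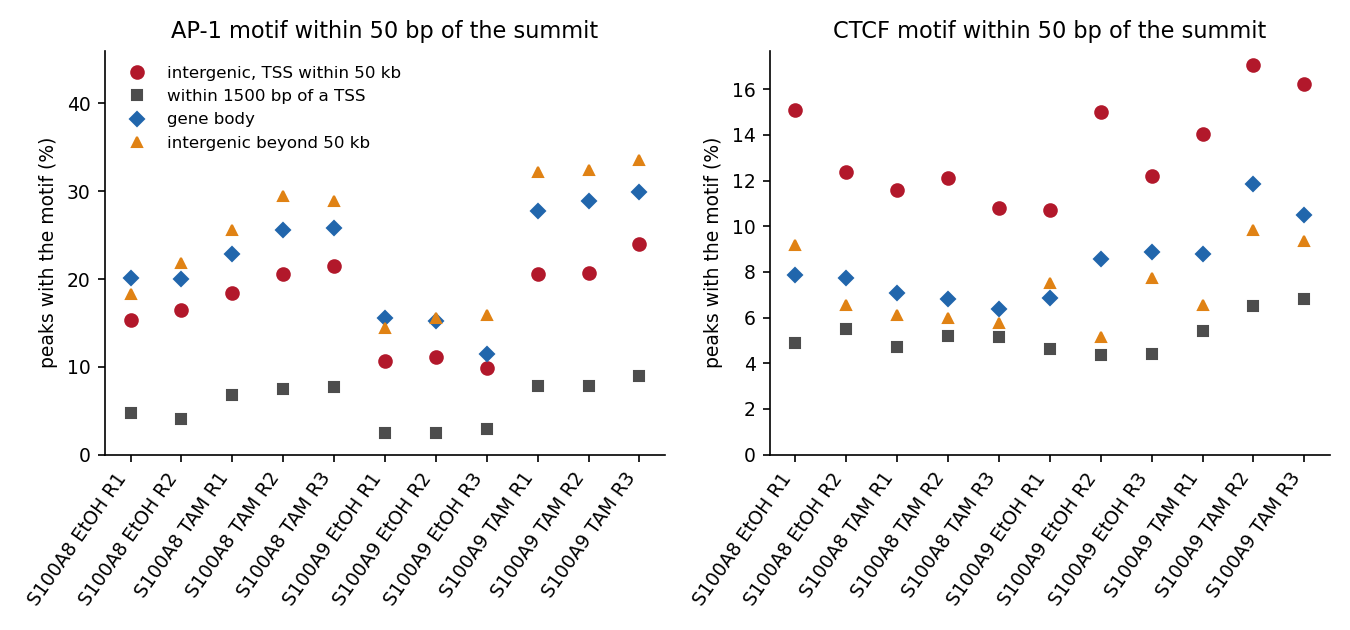
Percent of each library's peaks with AP-1 (left) or CTCF (right) within 50 bp of the peak's own summit (y axis), by library (x axis) and class of peak. The AP-1 share of intergenic peaks with a TSS within 50 kb (circles) is 9.82 to 16.5% in EtOH and 18.5 to 24.0% in TAM and lies under the other distal classes in every library, and the CTCF share lies above all other classes in every library.

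The calls at the union sites are given by motif as a description, since the sites were selected on them. Of the 1007 intergenic sites with AP-1, a mean of 5.9% were called per EtOH library and 60.9% per TAM library. Of the 2721 sites with neither AP-1 nor CTCF, 7.39% and 60.1% were called. The log2 ratio between these sets was −0.33 ± 0.29 in EtOH and 0.01 ± 0.05 in TAM, and the library ranges of EtOH and TAM overlapped. Sites with CTCF were called at 8.25% per EtOH library and 61.1% per TAM library.

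Motif shares of the intergenic sites varied with the number of EtOH libraries that called them. AP-1 was found at 31.8% of the 3322 sites with no EtOH call, at 26.5% of the 771 sites called by 1 EtOH library, and at 23.7% of the 329 sites called by 2 or more. C/EBP matches went the same way, from 21.5% to 17.0% and 14.3%. CTCF went from 16.7% to 23.9% and 23.1%, ETS from 6.71% to 9.99% and 9.73%, and KLF/SP1 from 3.28% to 4.93% and 7.6%. The median GC content of the 201 bp around the summit was 52.2%, 57.2%, and 60.7%, and the median merged width 269, 339, and 446 bp. The sites with more EtOH calls were also called by more TAM libraries, with means of 3.39, 4.14, and 4.76 of 6. The median distance to the nearest gene was 15555, 14376, and 15171 bp. As the number of calls also follows peak strength, the parts of strength and sequence were not tested apart.

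**Figure D4:**
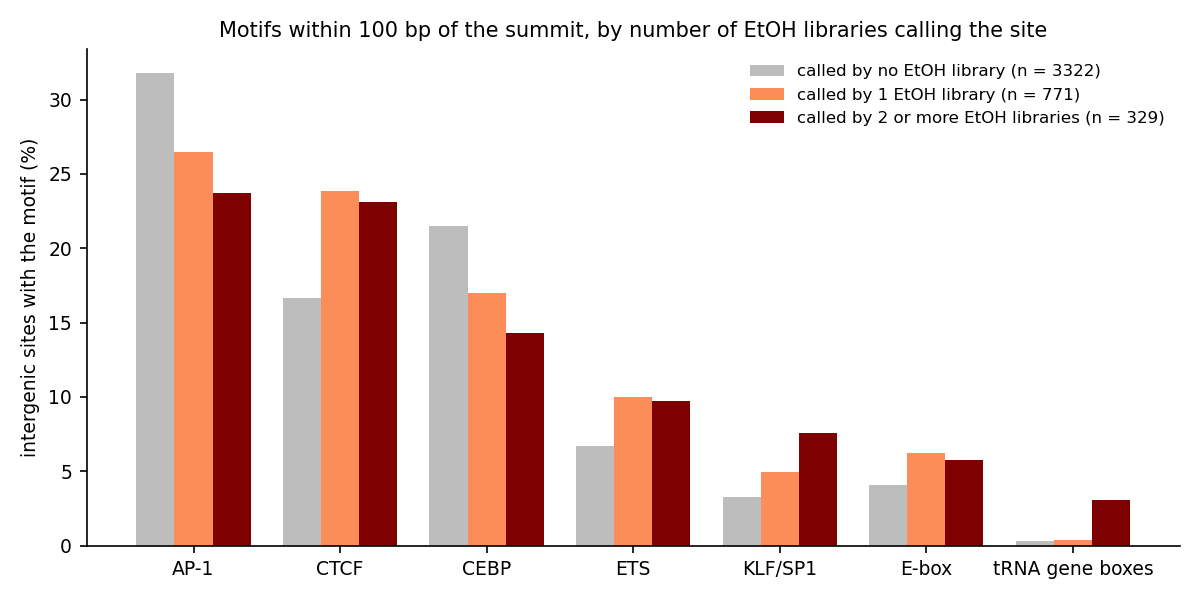
Percent of intergenic sites with a TSS within 50 kb that hold each motif within 100 bp of the summit (y axis), for 6 motifs and the boxes of tRNA genes (x axis), by whether 0, 1, or at least 2 EtOH libraries called the site (3322, 771, and 329 sites). AP-1 and C/EBP shares are lower in the third group than in the first, and KLF/SP1 and tRNA gene boxes are most frequent in the third, at 7.6% and 3.04%.

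Named by rule, the sites called in all 11 libraries with the highest mean rank in TAM lay upstream of RD3, KRT17, ZNF692, CFAP97D2, HAAO, and TNS4. The site upstream of RD3, a regulator of photoreceptor guanylate cyclase, lay 23297 bp from its TSS with no other protein-coding gene within 50 kb. Its fold enrichment was 11.5 and 7.14 for S100A8-Flag in EtOH and 6.61, 12.9, and 8.66 for S100A9-Flag in EtOH, and it was 22.1, 11.2, and 16.7 for S100A8-Flag in TAM and 12.6, 9.45, and 17.3 for S100A9-Flag in TAM. The TAM values overlapped the EtOH values in part, and its mean percentile in the library was 55.7 in EtOH and 90.6 in TAM. The site was placed first by its TAM percentile, so that this contrast supports nothing about the treatment.

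The site upstream of KRT17, a keratin of basal and stressed epithelium, lay 24083 bp from its TSS and was the widest of all intergenic sites after merging, at 3159 bp. For S100A9-Flag the values were 32.1, 13.4, and 24.9 with EtOH and 43.2, 38.2, and 19.2 with TAM, whereas S100A8-Flag gave 5.44 and 9.1 with EtOH and 15, 16.7, and 5.6 with TAM. The S100A9-Flag values thus lay above those of S100A8-Flag under each treatment, and this site held the highest fold enrichment of any intergenic peak in S100A9-Flag TAM replicates 1 and 2 and S100A9-Flag EtOH replicates 1 and 3. Fold enrichment depends on each library's own input and was not tested between libraries. The site upstream of TNS4, a tensin of focal adhesions, had values of 7.37 to 11.3 in EtOH and 7.06 to 17.7 in TAM.

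The sites near ZNF692 and HAAO lay over the internal promoter elements of tRNA genes. Their sequences hold both of these elements, the A box (TGGCNNANTNG or TAGCNNANTNG) and the B box (GTTCGANNC), which recruit the factors of RNA polymerase III, the enzyme that transcribes tRNA genes. They are printed here from the first base of the A box to the last of the B box, with the boxes in capitals, because tRNA genes are not among the protein-coding and lncRNA genes that the rule used.
tRNA gene boxes at the site near ZNF692, chr1:249168061-249168147, + strand: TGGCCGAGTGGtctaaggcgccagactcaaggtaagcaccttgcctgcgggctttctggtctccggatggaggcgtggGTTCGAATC
tRNA gene boxes at the site near HAAO, chr2:43037683-43037756, + strand: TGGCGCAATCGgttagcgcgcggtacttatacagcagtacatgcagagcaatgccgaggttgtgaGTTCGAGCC
In the gene order of RefSeq (GRCh38.p14, used for names only), the isoleucine tRNA gene TRI-TAT2-1 stands 2 places from HAAO, and the leucine tRNA gene TRL-CAA4-1 and the glutamate tRNA gene TRE-CTC2-1 stand 3 and 4 places from ZNF692. A search for an A box followed by a B box on the same strand, with 20 to 90 bp between them, was therefore added after these sequences were seen. It found 24 intergenic sites with the boxes within 100 bp of the summit (0.543%), next to 5 of 8844 control windows (0.0565%), 0.18% of sites near a TSS, 0.131% of gene-body sites, and 0.225% of sites beyond 50 kb. Of these 24 sites, 13 (54.2%) were called by an EtOH library, compared with 24.9% of all intergenic sites near genes. The boxes were at 10 of the 329 sites called by 2 or more EtOH libraries (3.04%) and at 11 of the 3322 with no EtOH call (0.331%). Per library, 20.8 to 37.5% of the 24 sites were called in EtOH and 54.2 to 91.7% in TAM. Apart from the sites near ZNF692 and HAAO, those with the most EtOH calls were near RAB11FIP4 and MRTFB, with 4 EtOH libraries each, and near EEF2K with 3. The sites were chosen after these calls were known, so that the counts are a description. Reads that map to several tRNA genes had been discarded by the authors, and the counts at these genes can be too low.

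Of 191 intergenic sites called in all 6 TAM libraries and in no EtOH library, the 5 with the highest mean rank were near TBX3, TJP3, FTO, LPIN3, and TRAPPC9. The site downstream of TBX3, a T-box factor of mammary gland development, had fold enrichments of 16.1, 10.3, and 10.1 for S100A8-Flag and of 14.1, 13.9, and 10.5 for S100A9-Flag. That upstream of TJP3, a protein of tight junctions, lay 2103 bp from its TSS and had values of 18.4, 9.36, and 17.8 for S100A8-Flag and 10.1, 15.4, and 10.5 for S100A9-Flag. The site downstream of FTO, an RNA demethylase, had values of 8.91, 10.2, and 12.9 for S100A8-Flag and 13.6, 13.9, and 16.9 for S100A9-Flag, and that upstream of LPIN3, a phosphatidate phosphatase, had values of 9.95 to 13.6. The ranges of both proteins overlapped at the sites near TBX3, TJP3, LPIN3, and TRAPPC9, whereas near FTO every S100A9-Flag value lay above every S100A8-Flag value. A site with no call in EtOH is not a site without signal, since 1452 of the 3322 such sites (43.7%) overlapped a weaker peak in the EtOH lists.

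The opposite pattern was rare. Among the 28 intergenic sites called by a larger share of EtOH than TAM libraries, the 4 with the largest excess lay near FAT2, ALDH3A1, SIK1, and KRT17. The site 37021 bp upstream of FAT2, an atypical cadherin, was called only by the S100A8-Flag libraries in EtOH, at fold enrichments of 13.6 and 11.7. That downstream of SIK1, a salt-inducible kinase, was called by the same libraries at 7.63 and 8.06 and holds AP-1. The site upstream of ALDH3A1, an aldehyde dehydrogenase, was called by 3 EtOH libraries at 8.71 to 9.39 and by 1 TAM library at 8.22. The second site of KRT17, 31036 bp upstream, was called by all 5 EtOH libraries, at 9.24 to 12.3, and by 4 TAM libraries, at 8.34 to 11.8.

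**Figure D5:**
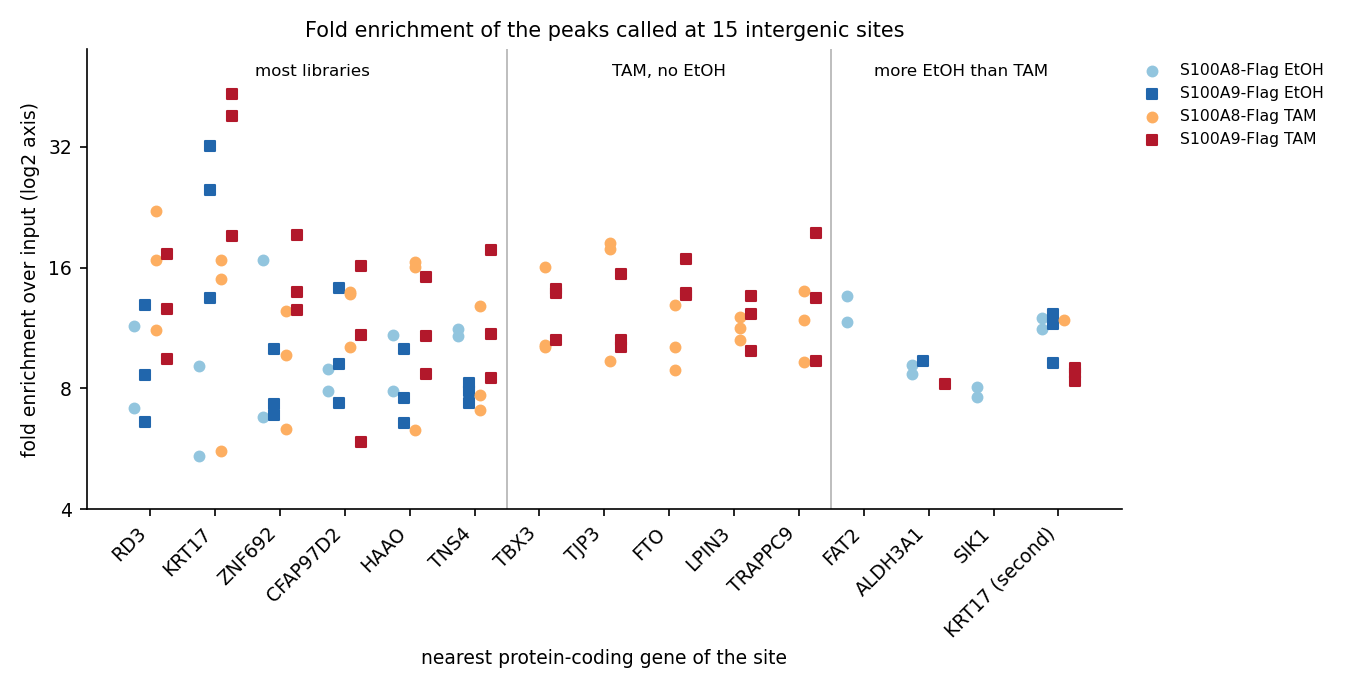
Fold enrichment over input (y axis, log2 axis) of the peaks called at 15 intergenic sites chosen by rule, named by the nearest protein-coding gene (x axis), with a point for each library that called the site and colors for the 4 groups. The 6 sites on the left were called in all 11 libraries, the 5 in the middle in the 6 TAM libraries, and the 4 on the right more often in EtOH, and the S100A9-Flag values at the first KRT17 site reach 43.2.

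By other motifs, the sites called in the most libraries without AP-1 within 50 bp were near SPRY2 for CTCF, TRIB1 for C/EBP, TBCB for STAT3, and FLVCR2 for TEAD. The CTCF site, 1880 bp upstream of SPRY2, an inhibitor of receptor tyrosine kinase signaling, was called by 4 EtOH and 6 TAM libraries, at 8.02 to 13.8 in EtOH and 7.87 to 15.7 in TAM. The C/EBP site, 18643 bp downstream of TRIB1, a pseudokinase that marks C/EBP factors for degradation, was called by 3 EtOH libraries at 6.45 to 7.57 and by 6 TAM libraries at 9.13 to 19.6. Every TAM value exceeded every EtOH value at this site and at the FLVCR2 site below. Ties between sites were broken by rank in TAM, so that this supports nothing about the treatment. The STAT3 site, 6059 bp downstream of TBCB, a tubulin folding cofactor, was called by 4 EtOH and 6 TAM libraries, at 7.01 to 9.35 and 7.16 to 16.7. The TEAD site, 17517 bp upstream of FLVCR2, a choline transporter, and within 50 kb of BATF, an AP-1 subunit, was called by 2 EtOH libraries at 6.12 and 8.18 and by 5 TAM libraries at 10.6 to 18.4.

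S100A8-Flag and S100A9-Flag shared the intergenic sites slightly less often than union sites in general. A site counted as shared when any library of each protein called it. In TAM, 3305 of 4422 sites (74.7%) were called for both proteins, next to 77.6% of all union sites, and their best summits lay a median of 26 bp apart, 76.2% of them within 50 bp. For comparison, both proteins called 72.5% of gene-body sites, 72.2% of sites beyond 50 kb, and 83.4% of sites near a TSS, where the summits lay 40 bp apart. At least 2 S100A9-Flag libraries and no S100A8-Flag library called 858 sites (19.4%, next to 16.5% of all union sites, 19.8% in gene bodies, and 20.6% beyond 50 kb), and the reverse held at 251 sites (5.68%, next to 5.68% of all union sites). The longest TAM list is that of S100A9-Flag replicate 3, with 40735 peaks. Between replicates in TAM, a median of 48% of the intergenic peaks of the smaller list overlapped a peak of the larger (42.4 to 70.4% over 6 pairs), and between the proteins in TAM it was 46.8% (43.3 to 65.3% over 9 pairs). In EtOH the medians were 22.3% between replicates (4 pairs) and 21.1% between proteins (6 pairs). Peaks near a TSS overlapped more often, at 60.1% between TAM replicates and 30.5% between EtOH replicates. The medians were 43.3% and 18.25% for gene-body peaks, and 44.35% and 20.16% for peaks beyond 50 kb. Peaks near a TSS were also wider, and the part of width in the overlap was not tested.

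Sites closer to a gene held less AP-1. The AP-1 share was 24.7% at 693 sites between 1500 and 5000 bp from the nearest protein-coding TSS, 27.4% at 844 sites up to 10000 bp, 29.5% at 1108 sites up to 20000 bp, and 34.3% at 1777 sites up to 50000 bp. The CTCF share went the other way, at 20.9%, 20.3%, 18.9%, and 16.2%. The mean share called per TAM library was 61.0%, 60.9%, 60.2%, and 60.1% over these bins, and that per EtOH library 8.14%, 7.56%, 6.84%, and 6.82%. The sites were selected on these calls, which are given as a description.

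The nearest other union site lay a median of 10278 bp away, and 55.5% had it within 12500 bp, compared with 53.9% of the sites near a TSS, 46.1% of those in gene bodies, and 33.0% of those beyond 50 kb. Joined at this distance, 1701 intergenic sites (38.5%) fell into 706 groups of 2 or more, and 60 groups held 4 or more. The largest group held 8 sites over 36884 bp between S100A6 and S100A7 at chr1:153462868-153499752. Groups of 7 lay near ACBD3 and H3-3A, DDIT4 and DNAJB12, KRT8 and KRT78, KRT17 and EIF1, and ID1.

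Of the 20098 protein-coding genes, 6000 (29.9%) had an intergenic site within 50 kb of a TSS, most of them, 3890, only 1 site, and 135 had 5 or more. The share with a union site within 1500 bp of a TSS was 56.9% among these 6000 genes (3412), next to 51.6% of all protein-coding genes. DDIT4, a stress-induced inhibitor of the growth kinase complex mTORC1, had the most, with 11 sites between 2825 and 48218 bp from its TSS. They held 49 TAM calls and 10 EtOH calls, and 3 of them were called in all 6 TAM libraries and 3 held AP-1. KRT8, a keratin of simple epithelium, had 10 sites with 38 TAM and 4 EtOH calls, 4 of them with CTCF. KRT17 had 8 sites with 37 TAM and 16 EtOH calls, and 7 of its 8 sites had an EtOH call. ID1, an inhibitor of basic helix-loop-helix factors, had 8 sites with 40 TAM and 10 EtOH calls, and its neighbors HM13 and COX4I2 shared them in part. EIF1 near KRT17, S100A6, and the neighbors VPS18 and RHOV on chromosome 15 also had 8 sites each. Distance alone tied these sites to the genes, and no expression was measured here.

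Genes of the chosen lists were more or less often flanked by intergenic sites than the 29.9% of all protein-coding genes. Of 15 AP-1 subunit genes, 13 (86.7%) had at least 1 site within 50 kb. FOS, FOSL2, and MAFK had 3 sites each, with 10, 14, and 12 TAM calls and 1, 3, and 2 EtOH calls, and those of FOS began 1546 bp from its TSS. No site of FOS or FOSL2 held AP-1, and 1 of MAFK did. Of 17 genes for matrix proteases and plasminogen activation, 12 (70.6%) had a site. Neighboring genes in this and other lists can share a site, so that the shares do not count independent genes. MMP1, MMP3, and MMP10 are neighbors on chromosome 11 and share 1 site of 4 TAM calls. PLAU, the urokinase that activates plasminogen, had 8 with 29 TAM and 4 EtOH calls, 3 of them with AP-1. Of 16 genes for chemokines and the IL1 family, 10 (62.5%) had a site, and IL1B, an inflammatory cytokine, had 7 with 27 TAM calls and no EtOH call, whereas the chemokine CCL20 had 4. Of 19 genes for laminin-332, integrins, and basal keratins, 11 (57.9%) had a site, led by KRT17 with 8 and KRT16 with 6.

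In the lists for signaling the shares were lower than in the lists above. All but that of the interferon regulatory factors still exceeded the 29.9% of all protein-coding genes. Of 18 genes of IL6, LIF, and STAT3 signaling, 8 (44.4%) had a site, led by BCL3, an IκB-like cofactor, with 4 sites and SOCS3, the feedback inhibitor of STAT3, with 3 sites 3884 to 8547 bp away. LIF, a cytokine of the IL6 family, also had 3, with 13 TAM calls and no EtOH call, and no union site within 1500 bp of its TSS. Of 16 genes of YAP, TAZ, and TEAD and their targets, 7 (43.8%) had a site, with 3 at PTPN14. Of 12 genes of EGF receptors and ligands, 5 (41.7%) had a site, with 2 each at TGFA and HBEGF. Of 15 NF-κB genes, 6 (40%) had a site, with 3 at the inhibitor gene NFKBIE and 2 at NFKBIA. Of 9 interferon regulatory factors, 2 (22.2%) had a site.

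Of 18 S100 genes, 13 (72.2%) had a site, but most stand side by side on chromosome 1 and share sites. S100A6 had 8 sites with 36 TAM and 3 EtOH calls. The genes S100A8 and S100A9 themselves had 6 sites each within 50 kb, with 27 TAM and 3 EtOH calls in each case, at 3119 to 35291 bp from the S100A8 TSS and 2169 to 47058 bp from the S100A9 TSS. For other cell types, 6 of 16 hepatocyte genes (37.5%) and 3 of 16 neuronal genes (18.8%) had a site. SERPINA1, among the hepatocyte genes, had 3 sites, all with AP-1 and all with an EtOH call. The lists are short and were chosen with earlier results of these data known, so that the shares are descriptions.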

How the data were processed

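Flag ChIP-seq peak lists of 11 libraries were used. RNA polymerase II and input samples were not analysed here. Per the paper's methods, the authors used Bowtie2 for alignment to hg19, discarded reads that mapped to several places, and called peaks with MACS2, library by library, against the matching chromatin input. Versions are not given in the sources used here. The deposited fold enrichment of a peak is a ratio of its signal over input, and the deposited −log10 q value is the authors' significance of that peak. The lists carry no read numbers, and the depth of a library and any counting interval are unknown. The deposited lists reach down to a −log10 q of 1.30 (a q of 0.05) and held 9523 to 34563 peaks per EtOH library and 53374 to 109395 per TAM library on chromosomes 1 to 22 and X. Of these, 1853 to 4609 and 21518 to 40735 passed a −log10 q of 7.

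Union sites were built from overlaps of at least 1 bp in at least 2 replicates. The summit is that of the peak with the highest −log10 q. TSSs were the starts of all transcripts of protein-coding and lncRNA genes in GENCODE 44 lifted to GRCh37. Motifs were matched without mismatch. A library called a site when a passing peak overlapped it. Treatments were compared by exact permutation of libraries within each protein (200 arrangements), and classes by exact sign flips over 11 libraries, two-sided, for 8 tests in all. For 5 planned comparisons of calls at union sites between treatments, values are given with no test, since the sites were selected on these calls. Sites were named by fixed rules: calls in the most libraries, calls in all 6 TAM and no EtOH libraries, the largest excess of EtOH calls, and the most libraries for each of 4 motifs, with ties broken by rank. Genes were named by their number of sites, the first 10 overall and the first 2 in each list. The members and lists were chosen with earlier results of these data known. Code was tested on simulated data in Python 3.11.15 with numpy 2.4.6, pandas 2.3.3, and scipy 1.17.1. Values of some single genes of the lists are not reported here.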

Additional observations from a re-analysis of the deposited data

Results flagged for a closer look

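The response of intergenic peaks to TAM differed between the proteins in 2 of 4 comparisons at an unadjusted exact permutation p of 0.05, and in none after adjustment over the 4 (Benjamini-Hochberg adjusted p = 0.1 for each). The AP-1 share of intergenic peaks rose by 6.92 points more for S100A9-Flag, by 11.2 points against 4.29 for S100A8-Flag (exact permutation p = 0.05), and the S100A9-Flag libraries in EtOH had the lower shares. The CTCF share moved by 5.38 points more for S100A9-Flag (exact permutation p = 0.05), with 3.13 points for S100A9-Flag and −2.25 for S100A8-Flag. The part of the 2 against 3 EtOH libraries was not tested.

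Peaks under the threshold gave signal at sites that counted as uncalled in EtOH. Of the 3322 intergenic sites without an EtOH call, 43.7% overlapped a weaker EtOH peak, compared with 70.5% of such sites near a TSS, 37.3% in gene bodies, and 34.2% beyond 50 kb. By library, S100A9-Flag in EtOH replicate 2 had such a peak at 5.81% of them, and the other 4 EtOH libraries at 14.8 to 16.9%.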

How the results depend on the processing

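Of 321 values under other settings, 291 kept their direction and their side of the threshold or stayed within the spread. Counts of sites and genes were instead judged by a fixed limit on their ratio to the main count. The settings include leaving out each of the 11 libraries in turn. Same-numbered EtOH and TAM libraries did not deviate together at the intergenic sites (correlations of −0.0202 to −0.00481 over 5 pairs). EtOH libraries called few of these sites, which were selected on calls. The correlations therefore cannot show whether same-numbered libraries were made together. With the replicate block, exact permutation over 5 pairs cannot go below p = 0.0625, and the calls at this p were lost for the number of intergenic peaks (3.35), their share (3.28 points), and their AP-1 share (8.18 points). The CTCF share turned to −2.16 points in the wider window and ranged from −0.23 to 1.12 points with each library left out. For calls at the selected union sites, which have no test, the difference between TAM and EtOH in the log2 ratio to all other sites was 0.48, and it was 0.60 at a −log10 q of 10, 0.32 with equal numbers of peaks, and 0.37 with protein-coding genes only. Against gene-body sites it was −0.39, and −0.10 with 1 TSS per gene and −0.50 with protein-coding genes only. Against sites beyond 50 kb it was −0.65, and −0.43 with a TSS within 20 kb and −0.53 with every replicate required. For AP-1 sites against those with neither AP-1 nor CTCF it was 0.31, and 0.60 with equal numbers of peaks. For CTCF sites against the same it was −0.18, and 0.11 with equal numbers of peaks, 0.0266 with every replicate required, and −0.0139 with protein-coding genes only. With the replicate block these 5 were 0.51, −0.40, −0.67, 0.33, and −0.14. The share of S100A9-Flag against S100A8-Flag turned to −0.0395 points with every deposited peak. The causes were not tested. The number of intergenic sites was 2492 at a −log10 q of 10, 8899 with every deposited peak, 232 with equal numbers of peaks, 2645 with a TSS within 20 kb, and 1780 with every replicate required, and for the first and the last 3 of these the number of genes was 3934, 438, 2998, and 3006. With each library left out, the number of sites ranged from 3165 to 4421 and that of genes from 4737 to 6000. The AP-1 share of intergenic sites was 27.2% with equal numbers of peaks, 27.6% within 20 kb, and 22.8% within 50 bp of the summit. Unknown depth limits every count of calls, and a site without a call is not shown to be free of signal.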

Other observations

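Some intergenic sites lay at annotated genes of other kinds that the positional rule did not use. Within 1500 bp of the start of a pseudogene lay 77 of the 4422 sites (1.74%), of a small RNA gene 56 (1.27%), and of other annotated genes 20 (0.452%). Among the sites called by 2 or more EtOH libraries these counts were 8, 1, and 1 of 329. Of the 24 sites with tRNA gene boxes, 8 lay on chromosome 6, near PRSS16, HMGN4, TRIM27, H4C8, and ZNF311, in the region of the histone genes, and 7 of these 8 had no EtOH call.

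By chromosome, intergenic sites near genes made up between 10.9% of the union sites on chromosome 4 and 18.2% of those on chromosome 1, which held 670 of them.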
